A study of Mus musculus with 12 samples.

Results

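The 41 genes described here encode the core machinery of DNA replication and S phase, and their splicing and expression were followed in mouse neuroblastoma cells depleted of the nuclear protein Sap30bp. They were chosen by name for their textbook function, with earlier results of these data known, and all 41 were found among the 54393 genes of the authors' deposited expression table. By role they comprise 11 genes of origin licensing, 5 of helicase activation, 9 of the polymerases and primase, 6 of the sliding clamp and its loader, 4 of single-strand binding and Okazaki fragment maturation, 3 of nucleotide supply and 3 of the control of S phase entry. After depletion, 3 introns of the genes for the catalytic subunits of the leading- and lagging-strand polymerases, 1 in Pold1 and 2 in Pole, were retained more often in the messenger RNA. These were 3 of 124 tested splicing events (2.42%), against 1.48% of the events of all genes. The Pold1 intron passed under all alternative settings tried, and the 2 Pole introns did not. None of the 41 genes passed the test for a change in RNA level.

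Replication starts where the origin recognition complex, Cdc6 and Cdt1 load the Mcm2 to Mcm7 helicase on DNA during G1 phase, a step called licensing. At S phase entry Mcm10, Cdc45 and the GINS complex turn the loaded helicase into a moving one, polymerase alpha with primase lays primers, polymerase epsilon extends the leading strand and polymerase delta the lagging strand, both held on DNA by the ring-shaped clamp PCNA. Many of these genes are transcribed together under E2F factors as cells leave G1, and proliferating lines such as neuroblastoma cells express them at high levels. Sap30bp is a nuclear factor that has been linked to the splicing of short introns.

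Polyadenylated RNA was sequenced from 12 libraries in 6 groups of 2 biological replicates. All groups are N2a Flp-In rtTA cells, a mouse neuroblastoma line with a doxycycline-responsive activator, and each of the 2 lines carries an inducible FLAG-tagged Sap30bp cDNA, one without exon 3 (called the lacking line) and one with it (the containing line). In each line the control group received a non-targeting siRNA pool and no doxycycline, the knockdown group received siRNA against Sap30bp and no doxycycline, and the rescue group received the same siRNA with doxycycline, which induces that line's cDNA. Medium was changed 24 hours after transfection and cells from all wells of a condition were pooled at 72 hours. Doxycycline was never given with the control siRNA, so the drug and the induced cDNA cannot be told apart. The isoform and the line that carries it cannot be told apart either, and in pooled cells fewer cells in S phase and less RNA per cell give the same reading.

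The targeted gene stood lower in knockdown and higher in rescue, although its fall did not pass the test. In the authors' deposited table Sap30bp stood at 40.0, 21.7 and 196 RPKM (reads scaled to transcript length and library size) in control, knockdown and rescue of the lacking line, and at 33.6, 18.6 and 141 RPKM in the containing line. The authors' false discovery rate (FDR) for its lower level in knockdown was 0.0674 in the first line and 0.0684 in the second, in the authors' deposited table. Of 15 neuroblastoma and neuronal markers, 3 to 5 were under 1 RPKM in a group and the list summed to levels of 1030 to 1451 RPKM, while 10 fibroblast markers summed to 1.81 to 4.54 RPKM and 10 glial and immune markers to 9.39 to 11.7 RPKM in the authors' deposited table. Each library had a splicing value for between 182904 and 207284 events in all and between 1157 and 1172 of the 1250 events in the 41 genes, and the number of reads behind each value is not known here.

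The splice junctions around which the main result turns are shown here as they appear in the spliced messenger RNA, because each marks the exact place where the retained intron is left in. In each line the last 20 bases of the upstream exon are in lower case and the first 20 bases of the downstream exon in capitals, 5′ to 3′ on the strand of the gene, from GENCODE M21 transcripts (GRCm38).
Pold1 intron 6: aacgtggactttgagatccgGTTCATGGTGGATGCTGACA
Pold1 intron 21: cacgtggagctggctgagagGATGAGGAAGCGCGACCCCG
Pold1 intron 22: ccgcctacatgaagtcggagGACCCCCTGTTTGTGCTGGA
Pole intron 10: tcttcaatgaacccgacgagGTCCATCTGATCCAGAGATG
Pole intron 17: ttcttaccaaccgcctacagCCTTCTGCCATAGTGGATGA
Pole intron 34: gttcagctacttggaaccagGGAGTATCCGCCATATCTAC
Pole intron 35: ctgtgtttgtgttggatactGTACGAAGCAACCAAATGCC
Introns are numbered from the 5′ end of the first reference transcript of each gene, which has 26 introns in Pold1 and 48 in Pole, and all 7 lie within the coding sequence. In Pold1, on the minus strand of chromosome 7, the authors' files (mm9) place intron 6 at chr7:51796942-51797023, intron 21 at chr7:51789858-51789933 and intron 22 at chr7:51789388-51789754. In Pole, on the plus strand of chromosome 5, they place intron 10 at chr5:110724022-110724246, intron 17 at chr5:110728040-110728118 and intron 34 at chr5:110753103-110753178. The GRCm38 positions of the 3 introns called below are chr7:44541572-44541653, chr5:110295003-110295227 and chr5:110324084-110324159. Of the 7 lengths, that of Pole intron 10, 225 nt, is a multiple of 3, and the other 6 (82, 76, 367, 79, 76 and 154 nt in the order printed) each leave a remainder of 1, so that retention shifts the reading frame.

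Intron retention is given as the percentage of transcripts that keep the intron, and changes as differences in percentage points. Events were tested where all 12 libraries had a value and the mean lay between 2 and 98%, and an event was called when the Benjamini-Hochberg adjusted p of a limma model over all 28980 such events was under 0.05 and the difference was at least 15 points. Of the 1250 events in the 41 genes, 124 were tested, in 33 genes, and 8 genes (Gins2, Mcm3, Mcm4, Mcm6, Orc2, Pcna, Rpa1 and Tyms) had none. Between knockdown and control, averaged over both lines, 3 of the 124 were called (2.42%), against 430 of 28980 (1.48%) over all genes. All 3 were introns retained more, out of 91 tested introns in 29 of the genes, and 254 of the 17096 introns tested over all genes (1.49%) were retained more. The remaining events, 14 exons, 13 alternative 3′ and 6 alternative 5′ splice sites, held no call, with differences from -7.54 to 5.19 points.

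Pold1 encodes the catalytic subunit of polymerase delta, and its 82-nt intron 6 showed the clearest change. In the lacking line the intron was retained in 2.27 and 4.10% of transcripts in the control libraries, 21.0 and 27.7% in the knockdown libraries and 4.87 and 11.4% in the rescue libraries. In the containing line the values were 1.60 and 2.56%, 22.7 and 18.5%, and 8.44 and 13.8%. All 4 knockdown libraries lay above all 4 control libraries, and in each line both rescue libraries lay between the control and the knockdown values. Averaged over both lines the intron rose by 19.8 points (SE 2.51, limma adjusted p = 0.00429). Its difference was 21.2 points in the lacking line (limma adjusted p = 0.0598) and 18.5 points in the containing line (limma adjusted p = 0.0538), so in a single line it did not pass with all libraries. Leaving out replicate 1 of the lacking knockdown leaves 1 library in that group. Its difference was then 24.5 points in the lacking line and 18.5 points in the containing line. The authors' deposited table of changed events lists it as changed by knockdown in both lines, by 20.7 and 18.4 points.

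Pole encodes the catalytic subunit of polymerase epsilon, and 2 of its 7 tested introns were called. Intron 10, 225 nt long, was retained in 3.23 and 15.4% of transcripts in control, 21.6 and 28.2% in knockdown and 4.35 and 18.3% in rescue of the lacking line. In the containing line it was retained in 7.69 and 11.7%, 30.4 and 30.2%, and 21.1 and 15.9%. Knockdown libraries exceeded the controls in both lines, and the rise averaged over both lines was 18.1 points (SE 3.83, limma adjusted p = 0.028). Intron 34, 76 nt long, went from 5.17 and 9.21% in control to 17.1 and 27.7% in knockdown of the lacking line, and from 0.0 and 8.50% to 21.9 and 19.2% in the containing line. Its rise was 15.7 points (SE 3.43, limma adjusted p = 0.031). The authors' deposited table of changed events lists intron 10 as changed by knockdown in the containing line (19.5 points) and not in the lacking line (14.8 points), and intron 34 is not among the events of the 41 genes listed there. The call of intron 10 was lost without any of 5 libraries (replicate 1 of either control group, replicate 2 of the containing control, and replicate 2 of either knockdown group), with limma adjusted p of 0.0641 to 0.123. That of intron 34 was lost without any of 6 (both replicates of the lacking control and of the containing knockdown, replicate 2 of the lacking knockdown and replicate 1 of the containing control), with 0.0605 to 0.137, while Pold1 intron 6 was called with each of the 12 libraries left out in turn.

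**Figure D1:**
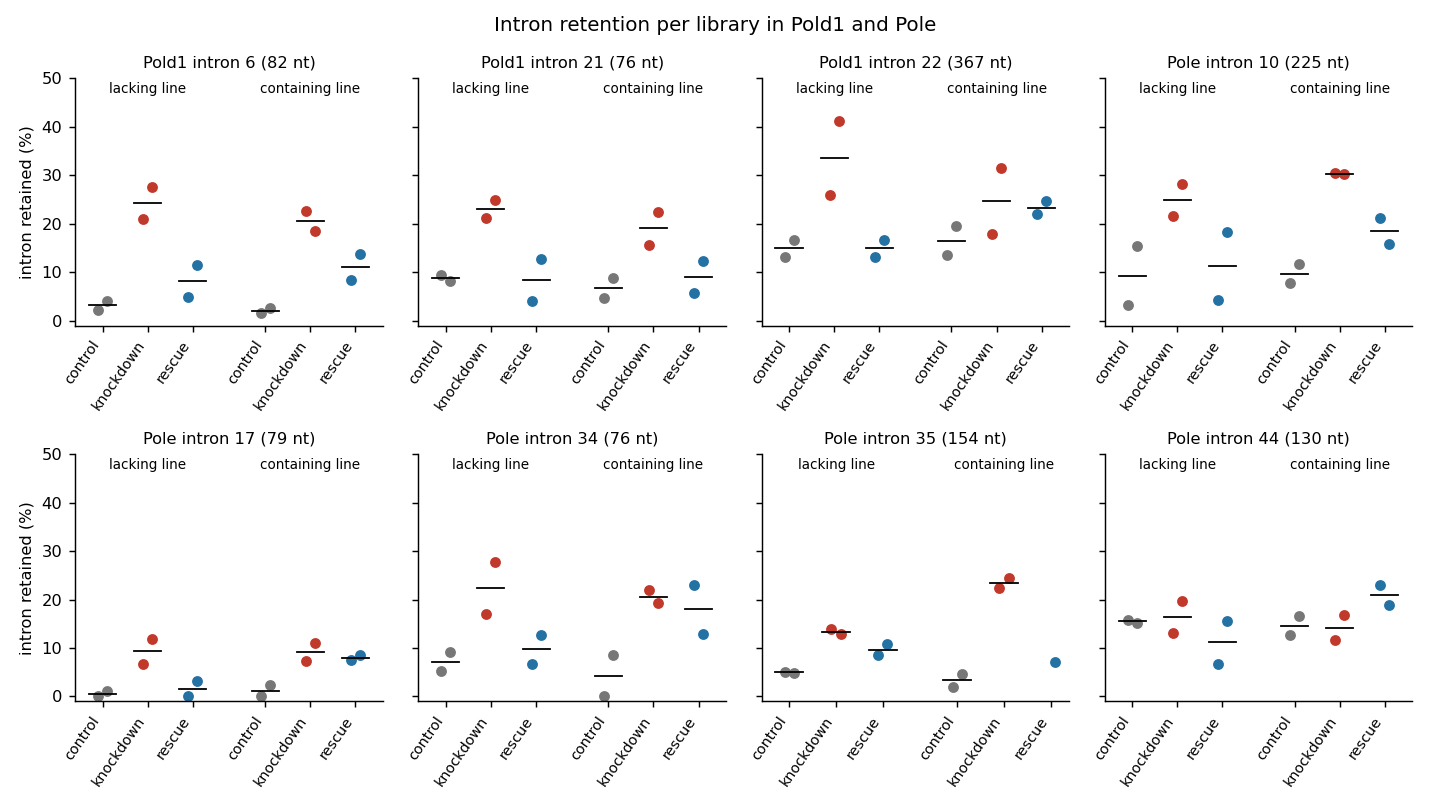
Percentage of transcripts retaining each of 8 introns of Pold1 and Pole (vertical axis, %) in the 6 groups (horizontal axis), with a point per library and a bar at the mean of 2 libraries; Pole intron 35 has 1 value in rescue of the containing line. Knockdown libraries lie above the controls of their line in every panel but Pold1 intron 22 in the containing line and Pole intron 44, whose groups overlap.

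Several other introns of the same genes stood higher in knockdown without reaching both thresholds. Pold1 intron 21, 76 nt, was retained in 9.47 and 8.22% in control and 21.3 and 24.9% in knockdown of the lacking line, and in 4.66 and 8.88% against 15.7 and 22.4% in the containing line. Its mean difference of 13.3 points (SE 2.82, limma adjusted p = 0.0285) was under the 15 points required. Pole intron 17, 79 nt, was nearly always removed in control (0.0 and 1.10%, and 0.0 and 2.44%) and was retained in 6.67 and 11.9% and in 7.32 and 11.1% in knockdown. That difference of 8.36 points (SE 1.58, limma adjusted p = 0.0175) was also below 15 points. With control means of 0.55 and 1.22%, Pole intron 17 came into the test only through higher values in other groups. Its p-value and the order of its libraries are therefore no independent support. For both introns all 4 knockdown libraries exceeded all 4 control libraries.

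Pold1 intron 22, 367 nt and next to intron 21, was the most retained of these in control cells. It stood at 13.2 and 16.7% in control and 26.0 and 41.2% in knockdown of the lacking line, and at 13.5 and 19.6% against 17.9 and 31.6% in the containing line, where the groups overlap. The mean difference was 13.4 points (SE 4.11, limma adjusted p = 0.101). Without replicate 1 of the lacking knockdown, which leaves 1 library in that group, it was 17.2 points. The authors' deposited table of changed events lists it as changed in the lacking line alone, by 17.8 points. Pole intron 35, 154 nt, adjoins intron 34 across 1 exon and had values in 11 libraries, so it was not tested. It was retained in 5.04 and 4.85% in control and 13.9 and 12.9% in knockdown of the lacking line, and in 1.96 and 4.64% against 22.4 and 24.4% in the containing line. The authors' deposited table lists it as changed in the containing line, by 19.9 points.

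The remaining tested introns of these 2 genes moved less. In Pold1 the 89-nt intron 12, the 87-nt intron 23 and the 197-nt intron 11 differed by 3.14 (SE 0.94), 3.82 (SE 2.60) and 4.52 points (SE 1.72), with limma adjusted p of 0.0935, 0.476 and 0.181. The other 6 tested introns of Pold1, 221 to 1581 nt long, differed by -2.02 to 4.61 points. In Pole the 130-nt intron 44 was retained in about the same share of transcripts in control (15.8, 15.2, 12.6 and 16.5%) and knockdown (13.1, 19.7, 11.6 and 16.8%). Its difference was 0.26 points (SE 2.92, limma adjusted p = 0.976). The 187-nt intron 22 differed by -1.10 points (SE 2.02), and the other 2 tested introns of Pole, of 1311 and 1601 nt, by -1.09 and 1.90 points. Along the genes, Pold1 introns 21 and 22 and Pole introns 34 and 35 stood high side by side, while Pold1 intron 6 and Pole introns 10 and 17 stood alone.

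**Figure D2:**
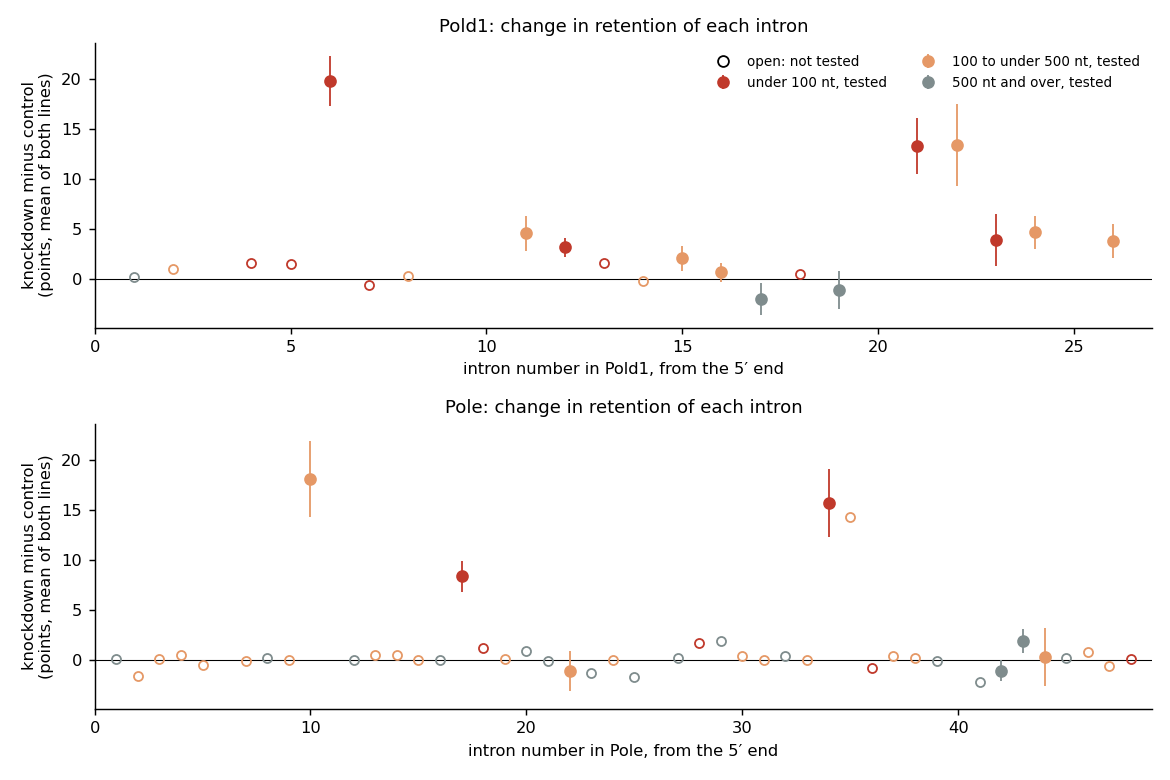
Difference in retention between knockdown and control, averaged over both lines (vertical axis, percentage points, bars ± SE), for each intron of Pold1 and Pole in order from the 5′ end (horizontal axis, intron number). Filled points were tested and coloured by length; open points were not tested. Pold1 introns 6, 21 and 22 and Pole introns 10, 17, 34 and 35 stand above neighbours near 0.

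Calls were most frequent among the shortest introns, in the 41 genes and over all genes. Of 11 tested introns under 100 nt, in 5 of the genes, 2 were called (18.2%), and over all genes 149 of 1958 introns of that length (7.61%) were. Pole intron 17 and Pold1 intron 12 had control means under 2% and came into the test through higher values in other groups. None of the 8 tested introns of 100 to under 200 nt was called (2.33% over all genes), 1 of 21 of 200 to under 500 nt was (1.08% over all genes), and none of the 20 of 500 to under 1000 nt or the 31 longer ones was, where over all genes 0.467% and 0.127% were. In genes other than Pold1 and Pole, the 5 tested introns under 100 nt differed by 0.70 to 4.31 points and the 72 tested introns of every length by -6.34 to 7.65 points. The largest of these differences was in the 1908-nt intron 4 of Prim1, the catalytic primase subunit (7.65 points, SE 2.50, limma adjusted p = 0.122).

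Most short introns of the 41 genes were removed almost completely in every group. Of 42 introns under 100 nt in 21 of the genes, 38 had a value in all 12 libraries and 27 of those had a mean retention under 2%, which kept them out of the test. The difference in these 27 ran from -0.86 to 2.43 points, and in the 24 of 100 to under 200 nt from -0.30 to 2.97 points. The tested set therefore holds the short introns that were retained to some degree, and a change from a low base had to be large to bring an intron into it.

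**Figure D3:**
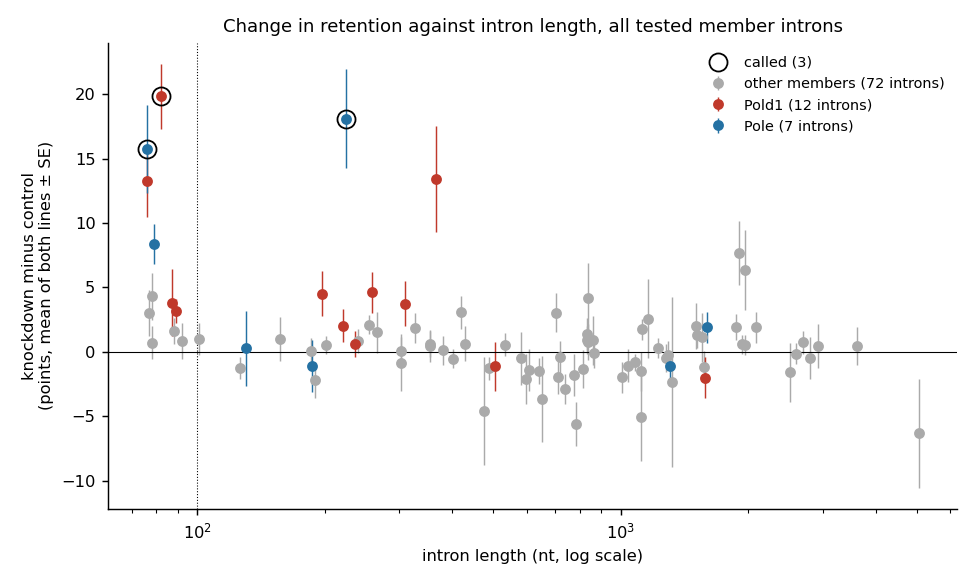
Difference in retention between knockdown and control, averaged over both lines (vertical axis, percentage points ± SE), against intron length (horizontal axis, nt, log scale) for the 91 tested introns. Pold1 (12 introns), Pole (7) and the other genes (72) are coloured, circles mark the 3 calls, and the dotted line is at 100 nt.

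Intron sequence was read only where a reference transcript keeps the intron whole, which was so for 32 of the 516 introns. The 4 printed below are examples. They are Pold1 intron 22 (its last 100 bases), which stood 13.4 points higher in knockdown without being called, and 3 shorter introns that differed by under 5 points. Whether sequence goes with the change in retention was not tested. Capitals mark the first and last bases of the intron, GT and AG; in the first line only the closing AG is in view. All are 5′ to 3′ on the strand of the gene, from GENCODE M21 transcripts (GRCm38).
Pold1 intron 22 end: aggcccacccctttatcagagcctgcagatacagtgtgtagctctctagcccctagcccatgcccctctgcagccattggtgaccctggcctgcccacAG
Pold1 intron 23: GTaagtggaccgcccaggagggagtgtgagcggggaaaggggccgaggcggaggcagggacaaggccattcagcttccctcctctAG
Cdt1 intron 2: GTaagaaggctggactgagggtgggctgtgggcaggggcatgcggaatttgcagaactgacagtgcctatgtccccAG
Rfc3 intron 6: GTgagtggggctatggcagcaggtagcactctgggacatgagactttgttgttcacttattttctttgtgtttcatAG
In the 30 bases before the closing AG, Pold1 intron 22 has 18 pyrimidines, Pold1 intron 23 also 18, Cdt1 intron 2 has 17 and Rfc3 intron 6 has 23. The longest run of pyrimidines there was 4 bases in Pold1 intron 22 and 12, 5 and 8 bases in the others. The first in-frame stop codon begins at base 79 of Pold1 intron 22 and at base 27 of intron 23. Cdt1 intron 2 (78 nt, in the gene for a licensing factor) differed by 4.31 points (SE 1.82, limma adjusted p = 0.228) and Rfc3 intron 6 (78 nt, in a clamp loader subunit) by 0.70 points (SE 1.27, limma adjusted p = 0.821). The sequences of Pold1 intron 6 and Pole introns 10 and 34 were not analysed here.

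Tested line by line, no event in the 41 genes was called for knockdown. Over all events 6 of 28980 (0.0207%) were called in the lacking line and 98 (0.338%) in the containing line. By limma's unadjusted p under 0.05, 15 and 9 of the 124 events differed, a share near or below that of all events (10.5% and 13.5%). The difference between the knockdown effects of the lines was called for 0 events of the 124 and for 0 of all events (0.0%), with 2 of the 124 at an unadjusted p under 0.05 (3.2% of all events). For Pold1 intron 6 it was -2.64 points (containing minus lacking, SE 5.02), for Pole intron 10 it was 5.08 points (SE 7.66) and for Pole intron 34 it was 1.10 points (SE 6.85), each with a limma adjusted p of 1.

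Inducing the Sap30bp cDNA was followed by lower retention of several of these introns in both lines, but no event in the 41 genes passed the test. In both lines the rescue libraries lay below the knockdown libraries for Pold1 intron 6, the 76-nt and 197-nt Pold1 introns and Pole intron 10. That held in the lacking line alone for the 89-nt and 367-nt Pold1 introns, Pole intron 34 and the 79-nt Pole intron. It held in neither line for the 87-nt Pold1 intron and the 130-nt and 187-nt Pole introns. Pole intron 10 averaged 24.9% in knockdown and 11.3% in rescue of the lacking line, and 30.3 and 18.5% in the containing line. Rescue was called against knockdown for 0 of the 124 events in each line, beside 1 of 28980 (0.00345%) in the lacking line and none (0.0%) in the containing line. By limma's unadjusted p under 0.05, 10 and 3 of the 124 events differed, against 8.57% and 6.84% of all events. Over the 17096 tested introns of all genes the median difference of rescue from knockdown was -1.375 points in the lacking line, with 25.7% positive. In the containing line it was -0.24 points, with 45.8% positive. The difference of rescue from knockdown was -16.2 points for Pold1 intron 6 in the lacking line (SE 3.55, limma adjusted p = 0.215) and -9.49 points in the containing line (SE 3.55, limma adjusted p = 0.66). Pole intron 34 stood at 6.78 and 12.6% in rescue of the lacking line and at 23.1 and 12.9% in the containing line. These are differences from knockdown of -12.7 points (SE 4.84, limma adjusted p = 0.487) and -2.56 points (SE 4.84, limma adjusted p = 0.974).

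Of the tested introns of Pold1 and Pole, Pold1 intron 22 gave the widest gap between the lines in its response to rescue. The lacking line had it back at 13.2 and 16.7%, the same range as control, and the containing line at 22.0 and 24.6%, above both controls and within the knockdown range. The rescue effects were -18.7 and -1.44 points, and the difference between them was 17.2 points (SE 8.22, limma unadjusted p = 0.0602, adjusted p = 0.933). Pole intron 17 was alike, with 0.0 and 3.23% in rescue of the first line and 7.46 and 8.47% in that of the second, and effects of -7.67 and -1.25 points. The difference of the rescue effects was called for none of the 124 events, with 4 at an unadjusted p under 0.05 (5.27% of all events), and for 1 of all events (0.00345%). Over the 17096 tested introns of all genes that difference was positive for 66.4%, with a median of 1.195 points. The widest gap among the 124, 20.7 points, was in a 1322-nt intron of Cdc45, the helicase cofactor, with an SE of 13.2 points (limma adjusted p = 0.951). A difference between the lines was therefore not shown for these genes, and with standard errors of up to 13.2 points over the 124 events a small one was not detectable. The authors' deposited table of changed events lists a rescue against knockdown in the lacking line for Pold1 intron 6 (-15.9 points) and intron 22 (-18.0 points), and none in the containing line.

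Tyms, which makes thymidylate for DNA synthesis, is the remaining gene of the 41 in the authors' deposited table of changed events. An 83-nt exon of it is listed there as included 31.9 points less in rescue than in control of the lacking line. The exon had values in 5 libraries, 81.6 and 60.5% in those controls, 38.7% in 1 rescue library of that line, and 62.2% in 1 control and 36.9% in 1 rescue library of the containing line. With no knockdown value, the exon was not tested here.

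No RNA level among the 41 genes passed the test in knockdown. Each level is 1 RPKM value per group with replicates combined and each fold change carries the authors' FDR, so no spread between replicates is at hand. At an FDR under 0.05, 0 of the 41 genes changed with knockdown of either line by the authors' deposited table, while 487 of 21541 genes (2.26%) changed in the lacking line and 793 (3.68%) in the containing line. At an unadjusted p under 0.05, 6 and 3 of the 41 differed in the authors' deposited table, against 11.9% and 13.6% of all genes. The lowest FDR of any of the 41 was 0.139 in the first line and 0.146 in the second, in the authors' deposited table.

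The differences leaned upward in the lacking line. By the authors' deposited table, a positive log2 fold change with knockdown was found there for 35 of the 41, with a median of 0.20, against a median of -0.03 over the 12834 genes of at least 1 RPKM. In the containing line 23 of 41 were positive with a median of 0.02, against -0.02 over those genes, in the authors' deposited table. Of those genes 46.7% were positive in the lacking line and 48.1% in the containing line. Between the control groups, 29 of the 41 stood lower in the lacking than in the containing line, against 48.2% of those genes. Between the knockdown groups 19 of the 41 did, and between the rescue groups 11. Whether the low level in the lacking control gives the lean was not tested. The difference between the lines was tested for each gene from the deposited fold changes and p-values, and 0 of the 41 genes passed at an adjusted or at an unadjusted p under 0.05, beside 4 of 21541 genes (0.0186%) at an adjusted and 1.23% at an unadjusted one. For rescue against knockdown the same test passed 0 of the 41 genes, with 0 at an unadjusted p under 0.05, beside 3 genes (0.0139%) at an adjusted and 1.22% at an unadjusted one. The standard errors of this test are approximate, and over all genes fewer passed than the unadjusted threshold alone would give. The test thus rarely passes a gene, and its counts of 0 do not show that the lines are alike.

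In the lacking line the origin licensing genes had the highest median of the 7 roles, and no difference between roles was tested. All 11 had a positive log2 fold change there in the authors' deposited table, with a median of 0.36. In the containing line 7 of 11 did, with a median of 0.10, the same as that of the 3 genes of S phase entry. Cdc6, which loads the helicase with the origin recognition complex, went from 12.2 to 17.7 RPKM in the first line and from 11.6 to 16.5 RPKM in the second (log2 fold changes 0.58 and 0.47, FDR 0.139 and 0.26) in the authors' deposited table. Orc2, a subunit of the origin recognition complex, went from 23.7 to 34.0 and from 26.6 to 37.3 RPKM (0.48 and 0.55) in the authors' deposited table. Mcm4, a helicase subunit, went from 36.2 to 53.3 and from 36.6 to 44.7 RPKM (0.56 and 0.31) in the authors' deposited table. None of these passed. Mcm3, another subunit, was at the other end with log2 fold changes of 0.04 and -0.19 in the authors' deposited table.

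Among the genes of helicase activation, Mcm10 stood at 40.8 RPKM in control and 54.3 in knockdown of the lacking line, and at 43.0 and 49.8 RPKM in the containing line (log2 fold changes 0.52 and 0.27) in the authors' deposited table. Gins2, a subunit of the GINS complex, had values of -0.02 and -0.30 in the authors' deposited table. The 9 polymerase and primase genes lay close to 0, with log2 fold changes of -0.02 to 0.28 in the first line and -0.36 to 0.24 in the second, in the authors' deposited table. Pold1 was at 41.6 and 41.9 RPKM in control and knockdown of the lacking line and at 50.2 and 43.9 RPKM in the containing line (log2 fold changes 0.12 and -0.36) in the authors' deposited table. Pole was at 21.7 and 23.2 RPKM and at 27.7 and 23.2 RPKM (0.26 and -0.12) in the authors' deposited table. The 2 genes whose introns were retained more thus had no change in RNA level past the test in either line.

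In the clamp and clamp loader group PCNA, encoded by Pcna, was the most abundant RNA of the 41 at 173 to 256 RPKM over the groups, and Rfc5 had the lowest mean log2 fold change of all 41 (-0.25 and -0.34 in the lines) in the authors' deposited table. Its RPKM values differ by less, with log2 ratios of -0.07 and -0.09. Of the single-strand and Okazaki fragment genes, Fen1, the flap nuclease, had 0.36 and 0.27, and Lig1, which seals the fragments, had 0.12 and -0.13 in the authors' deposited table. Rrm2, the regulated subunit of ribonucleotide reductase, went from 36.2 to 54.3 RPKM and from 29.2 to 37.7 RPKM (0.56 and 0.42) in the authors' deposited table, and Tyms had -0.19 and -0.14. Of the genes that drive entry into S phase, Ccne2 had 0.27 and 0.47 and the transcription factor gene E2f1 had -0.10 and -0.40 in the authors' deposited table. Over the mean of both lines the 5 highest were Cdc6, Orc2, Rrm2, Mcm4 and Mcm10 and the 5 lowest Rfc5, E2f1, Tyms, Gins2 and Pold1. By the ratio of RPKM values Ccne2 takes the place of Mcm10 among the 5 highest, and the 5 lowest are Tyms, E2f1, Pold2, Pold1 and Rfc5.

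**Figure D4:**
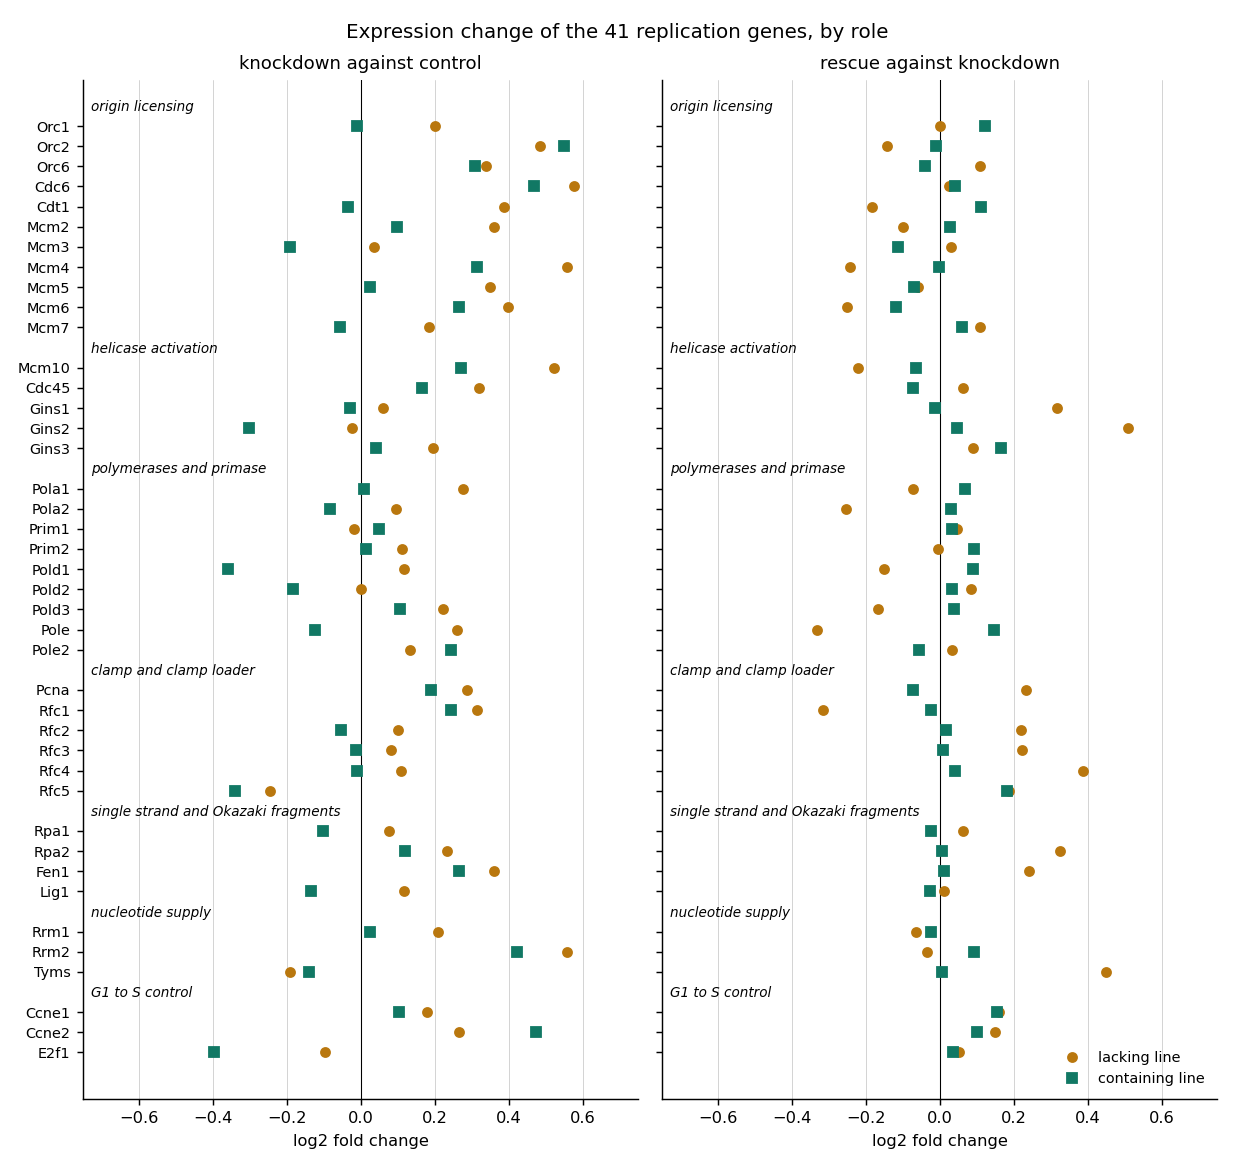
Log2 fold change of the 41 genes (horizontal axes) in the authors' deposited table, ordered by role, for knockdown against control (left) and rescue against knockdown (right). Circles are the lacking line and squares the containing line, with 1 value per gene and line; no point passes the authors' FDR of 0.05, and all 11 licensing genes are above 0 in the lacking line on the left.

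Rescue did not differ from knockdown past the test either. None of the 41 genes passed the FDR for rescue against knockdown in the authors' deposited table, where 5 genes (0.0232%) in the lacking line and 1 gene (0.00464%) in the containing line did. At an unadjusted p under 0.05, 1 and 0 of the 41 differed in the authors' deposited table, against 5.98% and 1.33% of all genes. The medians over the 41 were 0.03 in each line. Gins2 had the highest log2 fold change, 0.51 in the lacking line, from 28.2 to 38.2 RPKM, and Pole the lowest, -0.33, in the authors' deposited table. By the log2 ratio of RPKM values the highest in that line was Tyms (0.72, from 47.6 to 78.5 RPKM) and the lowest Orc2 (-0.32). For Pole the RPKM values go the other way, 23.2 in knockdown and 26.0 in rescue, and over the 41 genes the RPKM ratio and the log2 fold change of the authors' deposited table differed in sign for 5 genes in this comparison, 8 in the rescue of the other line and 2 and 4 in the knockdowns. Against control, none of the 41 passed in rescue of either line, beside 199 genes (0.924%) and 490 genes (2.27%). By an unadjusted p under 0.05, 5 and 4 of the 41 differed, against 8.22% and 10.5% of all genes in the authors' deposited table. In rescue of the lacking line 35 of the 41 stood above control (median log2 fold change 0.26), as did all 11 licensing genes (median 0.29). Knockdown and rescue of a line share 1 control group, so these counts are no separate observation from those of knockdown. In rescue of the containing line 27 of the 41 were positive (median 0.08). The medians over the 12834 genes of at least 1 RPKM were -0.03 and -0.01.

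Between the control groups of the lines, 2 of the 41 genes differed in the authors' deposited table, beside 803 of 21541 (3.73%). Pola1, the catalytic subunit of polymerase alpha, was at 12.8 RPKM in the lacking and 20.9 RPKM in the containing line (log2 fold change 0.66, FDR 0.0165) in the authors' deposited table. Pole2, the second subunit of polymerase epsilon, was at 26.9 and 17.4 RPKM (-0.76, FDR 0.0403) in the authors' deposited table. Both genes kept the same order of the lines in the knockdown groups (16.2 against 20.2 RPKM for Pola1, 30.5 against 21.0 RPKM for Pole2) and in the rescue groups (15.3 against 21.3 and 33.3 against 20.2 RPKM) in the authors' deposited table. In those groups none of the 41 passed between the lines, beside 2.9% and 3.29% of all genes, with 6 and 4 of the 41, and 12.2% and 11.9% of all genes, at an unadjusted p under 0.05.

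A wider list of 59 other replication pathway genes had a wider spread, with log2 fold changes with knockdown of -0.96 to 0.61 in the lacking line and -1.20 to 1.09 in the containing line, against -0.25 to 0.58 and -0.40 to 0.55 for the 41, in the authors' deposited table. Of 60 entries tested (Chtf8 has 2 gene identifiers), 11 in the lacking line and 6 in the containing line had an unadjusted p under 0.05 with knockdown. The shares of all genes were 11.9% and 13.6%. At the FDR 0 passed in the lacking line and 1 in the containing line, beside 2.26% and 3.68% of all genes, in the authors' deposited table. That one, named here after its value was seen, is Pold4, the smallest subunit of polymerase delta, which fell from 15.6 to 7.73 RPKM (log2 fold change -1.04, FDR 0.0396) in the authors' deposited table. Of the 60 entries 40 were positive in the lacking line and 36 in the containing line, and the medians of the list were 0.14 and 0.06. Of 30 genes of G2 and mitosis, by comparison, 15 had a positive value in the lacking line with a median of 0.01, and 6 in the containing line with a median of -0.15, and 1 of them, Cdc25b, fell in the latter (log2 fold change -0.92, FDR 0.00167) in the authors' deposited table. Of 13 tested genes of G1, Myc rose in the lacking line (0.74, FDR 0.0451) in the authors' deposited table, and the medians were -0.05 in each line.

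The wider list also held introns that were retained more. Of its 246 tested events in 49 genes, 6 were called for knockdown averaged over both lines, against 430 of 28980 (1.48%) over all genes. Among the 6 calls, 5 were introns retained more, out of 155 tested introns, against 254 of 17096 (1.49%) over all genes. The 5 introns lie in 2 genes. Recql4, a helicase needed at origin firing, held 4 of the 5, 71 to 78 nt long, with rises of 22.9 to 28.0 points. Over all genes, 149 of 1958 tested introns under 100 nt (7.61%) were called as retained more. Chtf18, of the clamp loader that works in sister chromatid cohesion, held 1 of 236 nt, which rose by 16.4 points (limma adjusted p = 0.0137). The sixth was a 144-nt exon of Cdk2, the kinase that pairs with cyclin E, included 15.5 points less (limma adjusted p = 0.0166). These 3 genes were named after their values were seen.

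The promoters of the 41 were searched on both strands for the E2F-like words TTTCCCGC, TTTGGCGC, TTTCGCGC and TTTGCCGC. The window was the 250 bases before and 50 after the gene start (RefSeq, GRCm38). Of the 41 genes 34 matched an entry; Ccne2, Gins1, Gins2, Mcm4, Pole, Prim2 and Rfc2 did not. Of the 34, 14 (41.2%) held at least 1 match, against 704 of 27025 genes (2.60%) in the whole table. The licensing genes with a match were Cdc6, Cdt1, Mcm3, Mcm5, Mcm6, Mcm7 and Orc1. Those of other roles were Gins3, Lig1, Pola1, Pold1, Pold3, Pole2 and Rfc3. The licensing genes Mcm2, Orc2 and Orc6 had no match, and neither did Rrm2 and Mcm10. Part of 3 licensing promoters is printed with the matches in capitals, 5′ to 3′ on the strand of the gene; where matches overlap, the capitals run on.
Mcm5: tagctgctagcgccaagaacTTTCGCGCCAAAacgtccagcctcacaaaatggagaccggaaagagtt
Mcm6: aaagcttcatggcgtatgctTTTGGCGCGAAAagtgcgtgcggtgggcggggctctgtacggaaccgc
Cdc6: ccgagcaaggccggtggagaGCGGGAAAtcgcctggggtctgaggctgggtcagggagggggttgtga
Mcm5 held 2 overlapping matches, Mcm6 had 3, 2 of them in the stretch shown, and Cdc6 had 1. The windows lie at chr8:75109259-75109558 (plus strand), chr1:128359656-128359955 (minus strand) and chr11:98907901-98908200 (plus strand). A match is a run of letters and was not tested for binding or against RNA levels here.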

How the data were processed

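RNA-seq libraries of N2a cells were compared from files the authors deposited. Splicing values are vast-tools percent spliced in (a percentage per event and library, mm9), per the file headers, and an intron's value is its percent retention. The authors' expression table holds 1 RPKM per group and, for each comparison, log2 fold changes with p-values and FDR. The submitters' processing notes name Salmon 0.14.1 and edgeR. The role of each tool, the vast-tools version and read counts, and so depth, are unknown here.

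Percentages were fitted in limma 3.58.1 (R 4.3.3) with 6 group means and a robust trended prior, over 28980 events in 7019 genes with values in 12 of 12 libraries and a mean of 2 to 98%. The first entry of each alternative site set was left out (37194 of 401633). p-values were Benjamini-Hochberg adjusted over all events. The labels call the samples biological replicates, and p-values measure the spread between them. The test was checked on simulated data. Expression calls are the authors' deposited FDR under 0.05, and differences between lines used standard errors derived from the deposited log2 fold changes and p-values.

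The members and lists were chosen with earlier results of these data known. Named were members by role, those with a deposited FDR under 0.05, the 5 highest and 5 lowest mean log2 fold changes, called or deposited events or those of at least 10 points, and Pold1 and Pole introns under 200 nt. Introns were matched to GRCm38 by gene, strand, length and flanking exon lengths (471 by both exons, 44 by 1, and 1 of 516 unmatched). Alternatives were a replicate block, a logit scale, other filters and thresholds, each library left out, and for expression other FDR rules and RPKM ratios with pseudocounts of 1 and 0.1.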

Additional observations from a re-analysis of the deposited data

How the results depend on the processing

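Of 139 alternatives for the counts and medians over the 41 genes, 124 stayed within 1.5 times the reported value. Most of the 124 were counts of 0 that stayed 0, as for rescue and the differences between lines, so they bear little on the 3 calls. A count of 2 in place of 3 also lies within 1.5 times. None of the called introns changed direction. For knockdown averaged over both lines the count of 3 called events was 1 on the logit scale and 1 with no filter on the mean percentage (Pold1 intron 6 in both), 3 with values in at least 10 libraries and 4 at 10 points. Leaving out 1 library at a time gave 1 to 4, with 1 (Pold1 intron 6) without replicate 1 of either control group or replicate 2 of either knockdown group. For the lacking line alone the count of 0 ranged from 0 to 1 on leaving out a library, and in the containing line from 0 to 1. The latter was also 1 on the logit scale (Pold1 intron 6) and 1 with values in at least 10 libraries (Pole intron 35). The cause was not tested. For rescue and for the differences between lines the count was 0 throughout. Of the called introns, Pole intron 10 lost its call under 7 of 17 alternatives (limma adjusted p up to 0.278) and Pole intron 34 under 8 of 17 (up to 0.297).

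The labels give replicate numbers but no shared day or batch. With the replicate block, the count was 3 for the mean of both lines and 1 in each line, Pold1 intron 6 (limma adjusted p = 0.0336 and 0.0309). The block also raised the calls over all 28980 events, from 430 to 514 for the mean of both lines. In the lacking line they went from 6 to 103 and in the containing line from 98 to 273. Differences between replicates 1 and 2 correlated at 0.042 to 0.31 between groups, and with 2 pairs per comparison the pairing is not established.

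The median log2 change of the 41 genes for rescue against knockdown in the lacking line, 0.032 in the authors' deposited table, was 0.057 as an RPKM ratio with a pseudocount of 1 and 0.061 with 0.1; no expression count left 0 at an FDR under 0.1 or among genes of at least 1 RPKM. Depth per event is not known, and 2 libraries per group limit what a single line can show.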
